A study of Mus musculus with 24 samples.

Results

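DUSP phosphatases, Sproutys and Spreds switch off signalling through the kinase ERK, and some DUSPs act also or mainly on the kinases p38 and JNK. Here 10 genes of these families were followed in mouse CD8+ T cells exposed to bile acids. The genes were Dusp1, Dusp2, Dusp4, Dusp5, Dusp6, Dusp10, Spry1, Spry2, Spred1 and Spred2. They were picked by gene symbol from a table of 24537 genes, each symbol had 1 row, and all 10 entered the test, which covered 13044 genes. The RNA came from CD8+ T cells activated in vitro and then cultured with a bile acid, in 8 groups of 3 RNA-seq libraries. The unconjugated acids were given at 50 µM: LCA (lithocholic acid), IsoLCA, IsoAlloLCA, DehydroLCA and UDCA (ursodeoxycholic acid). The taurine conjugates TCA (taurocholic acid) and TCDCA (taurochenodeoxycholic acid) were given at 100 µM, and control cells were activated but had no bile acid named. Exposure was 24 h in the series' design text and overnight in the treatment protocol. Mouse strain, activating agent, vehicle and the origin of the 3 libraries within a group (mice, cultures or repeat preparations) are not given in the labels, so p-values measure the spread between these libraries, which may be technical.

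When a T cell receptor is engaged, adaptor proteins and exchange factors load RAS with GTP, and RAS starts a relay of the kinases RAF, MEK and ERK. ERK enters the nucleus and switches on early transcription factor genes, and also genes whose products shut the relay down. DUSPs remove phosphates from ERK, p38 or JNK, whereas Sproutys and Spreds act further up, at RAS and RAF. Phosphorylated ERK was not analysed here, so the values below are RNA levels of the brakes and not activity of the pathway. In bulk RNA, fewer cells that express a gene and less RNA per cell cannot be told apart.

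Libraries held 25998051 to 41024340.5 counts in genes. Levels are given as CPM, counts scaled to a common library total with TMM factors that allow for differences in composition. The summed level of 11 CD8 T cell markers lay between 5244 and 5955 CPM in all libraries, and in IsoLCA, TCDCA and UDCA (5668 to 5955 CPM) it lay above control (5316 to 5485 CPM). Marker sums of other cell types also left the control range. The 8 myeloid markers summed to 7.23 to 9.81 CPM with IsoAlloLCA and 4.83 to 5.44 CPM with LCA, against 3.67 to 4.52 CPM in control, and the 3 NK cell markers to 2.33 to 3.47 CPM with IsoAlloLCA, against 0.718 to 1.12 CPM in control. The 5 B cell markers summed to 4.19 to 4.48 CPM with LCA, 4.08 to 5.08 CPM with IsoAlloLCA and 5.04 to 5.77 CPM over IsoLCA, DehydroLCA and TCDCA, against 5.88 to 6.38 CPM in control. The 3 genes listed for CD4 T cells, mostly Zbtb7b, summed to 60.3 to 65.8 CPM with LCA, 57.7 to 60.8 CPM with DehydroLCA, 53.4 to 58.2 CPM with IsoAlloLCA, 45.98 to 48.1 CPM with UDCA and 41.3 to 44.1 CPM with TCDCA, against 48.2 to 52.4 CPM in control, while Cd4 itself was below 1 CPM on average in control, LCA and IsoAlloLCA. The 6 stromal, endothelial, erythroid and liver markers, of which Alb was at 0 in every library, summed to 30.7 to 36.9 CPM with LCA and 36.04 to 41.3 CPM over IsoLCA, DehydroLCA, UDCA and TCDCA, against 45.3 to 51.9 CPM in control, nearly all of it Pecam1, which T cells also express. Counts in exons made up 78.3% ± 2.78 of the total reads that the file header gives for IsoAlloLCA libraries and 82.6% ± 1.37 for control (SD, n = 3 each). The part of these differences in the results below was not tested.

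A gene was called changed when its adjusted p (edgeR quasi-likelihood test, Benjamini-Hochberg over all genes tested) was under 0.05. Of the 70 values of 10 genes in 7 acids, 22 were called. LCA lowered 4 of the 10 genes (Dusp6, Spry1, Spred1, Spred2) and raised none, where 36.5% of all genes tested were called and 18.8% called lower. The share of the 10 genes with a call, 40%, was close to that of all genes. IsoLCA lowered 4 (Dusp5, Dusp6, Spred1, Spred2), where 9.84% of all genes were called and 6.12% called lower. IsoAlloLCA raised 4 (Dusp1, Dusp4, Dusp10, Spry2) and lowered Spred2, where 58.4% were called and 30.6% called higher, so its share of the 10 was below that of all genes. DehydroLCA lowered Spred1 and Spred2, where 5.83% were called and 3.41% called lower. UDCA lowered 4 (Dusp4, Dusp6, Spred1, Spred2) and raised Dusp2, where 19.9% were called and 10.7% called lower. TCDCA lowered Dusp4 and Spred2, where 13.1% were called and 8.04% called lower. With TCA 0 of the 10 were called by edgeR, and 0 by DESeq2, where 0.437% of all genes were called; 4 of the 10 had an unadjusted p under 0.05, as had 8.66% of all genes. All 7 comparisons use the same 3 control libraries, so they are not independent of each other. Lack of overlap between acid and control libraries was common among all genes. Of the 10, 1 lay higher and 4 lower without overlap with LCA, IsoLCA and UDCA each (47.7%, 24.6% and 34.8% of all genes, either direction). With IsoAlloLCA 4 lay higher and 1 lower (58.6%). DehydroLCA and TCDCA had 3 lower each (26.5% and 32.8%), and TCA had 2 lower (13.8%).

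**Figure D1:**
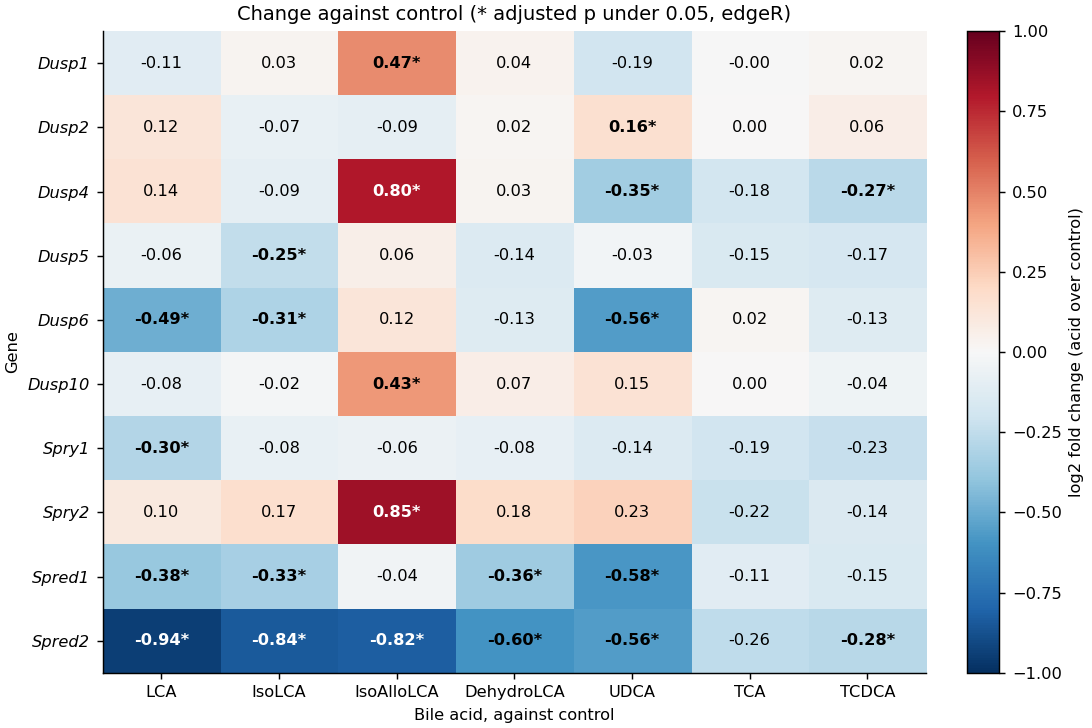
Log2 fold change of each gene (rows) with each bile acid over control (columns), n = 3 libraries per group; an asterisk marks an adjusted p under 0.05. Spred2 was called lower in 6 of the 7 columns, and the called increases in the phosphatase rows and Spry2 stand in the IsoAlloLCA column, apart from Dusp2 with UDCA.

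The genes differed widely in abundance. Per kilobase of transcript, the control level was highest for Dusp2 (29.0 CPM per kb), Dusp5 (26.3), Dusp6 (20.3) and Dusp4 (19.98). Spred2 followed at 15.9 CPM per kb, and Dusp1, Spry1, Spred1 and Dusp10 lay between 3.66 and 6.43 CPM per kb. Spry2 was the scarcest, at 1.01 CPM per kb in control and 46.5 to 146 counts per library over the series. With IsoAlloLCA, Dusp4 became the most abundant of the 10, at 34.9 CPM per kb.

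Spred2, which holds back RAF activation by RAS, fell further than any other of the 10 genes with each acid that lowered it except UDCA, where Spred1 and Dusp6 fell slightly more. Spred2 had 24.5, 23.4 and 23.2 CPM in the LCA libraries, against 41.8, 49.6 and 45.1 CPM in control. It had 26.7, 22.9 and 26.4 CPM with IsoLCA, 27.8, 25.0 and 24.2 CPM with IsoAlloLCA, and 28.4, 30.3 and 31.4 CPM with DehydroLCA. It had 29.0, 28.4 and 35.7 CPM with UDCA, where replicate 3 lay nearest to control. Every library of these 5 acids lay below the lowest control library. With the conjugates the drop was smaller: 36.8, 40.6 and 36.9 CPM with TCA, and 37.4, 36.9 and 38.1 CPM with TCDCA, all still below control.

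On the log2 scale Spred2 changed by -0.94 ± 0.08 with LCA (SE; adjusted p = 6.66e-10), -0.84 ± 0.07 with IsoLCA (1e-08) and -0.82 ± 0.08 with IsoAlloLCA (1.34e-09). The changes were -0.60 ± 0.07 with DehydroLCA (adjusted p = 7.1e-06) and -0.56 ± 0.07 with UDCA (6.7e-06). With TCDCA it was -0.28 ± 0.07 (adjusted p = 0.0116), a call that was lost when control replicate 2, the control library with the most Spred2, was left out (adjusted p = 0.104). With TCA the value was -0.26 ± 0.07 (adjusted p = 0.159), which passed without control replicate 1 (adjusted p = 0.0489). Ordered by mean level, the groups ran control, TCA, TCDCA, UDCA, DehydroLCA, IsoAlloLCA, IsoLCA and LCA, and 3 of the 7 neighbouring steps were free of overlap between libraries. Pecam1, from the marker lists above, was also called lower with LCA (-0.54), IsoLCA (-0.33), DehydroLCA (-0.30), UDCA (-0.38) and TCDCA (-0.35), and not with IsoAlloLCA (-0.01) or TCA (-0.06). Its part in the Spred2 values was not tested.

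The gene lies on the plus strand at chr11:19924442-20022597 (mm10). Its proximal promoter is shown because it is the gene lowered by the most acids, with 250 bases before the RefSeq start, at chr11:19924192-19924441 of GRCm38.p6, the build that mm10 names. Capitals mark 1 match to TGACG, the core of the cAMP response element, read on the minus strand and starting 51 bases before the start site; 17.8% of 32851 mouse promoter windows of this length hold a TGACG on either strand.
Spred2: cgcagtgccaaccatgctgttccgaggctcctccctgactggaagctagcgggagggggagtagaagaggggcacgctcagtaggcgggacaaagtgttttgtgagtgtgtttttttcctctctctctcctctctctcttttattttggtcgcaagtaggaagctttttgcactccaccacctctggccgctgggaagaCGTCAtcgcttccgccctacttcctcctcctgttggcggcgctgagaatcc

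Spred1 is the close relative of Spred2 and brings the RAS-inactivating protein neurofibromin to the membrane. It fell with 4 of the acids. Spred1 had 24.7, 24.0 and 23.1 CPM with LCA, 26.8, 21.7 and 25.6 CPM with IsoLCA, and 23.8, 24.0 and 25.0 CPM with DehydroLCA. It had 18.8, 20.03 and 23.8 CPM with UDCA, against 28.9, 32.8 and 31.8 CPM in control. None of these 12 libraries reached the lowest control library. With IsoAlloLCA it had 31.6, 30.3 and 29.1 CPM, within the control range, and the value was -0.04 (95% interval -0.19 to 0.11). The log2 changes were -0.38 ± 0.07 with LCA (adjusted p = 0.000249), -0.33 ± 0.07 with IsoLCA (0.00334), -0.36 ± 0.07 with DehydroLCA (0.00352) and -0.58 ± 0.08 with UDCA (4.73e-06). With IsoAlloLCA Spred2 was thus called lower and Spred1 was not; the difference between the 2 genes was not tested.

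**Figure D2:**
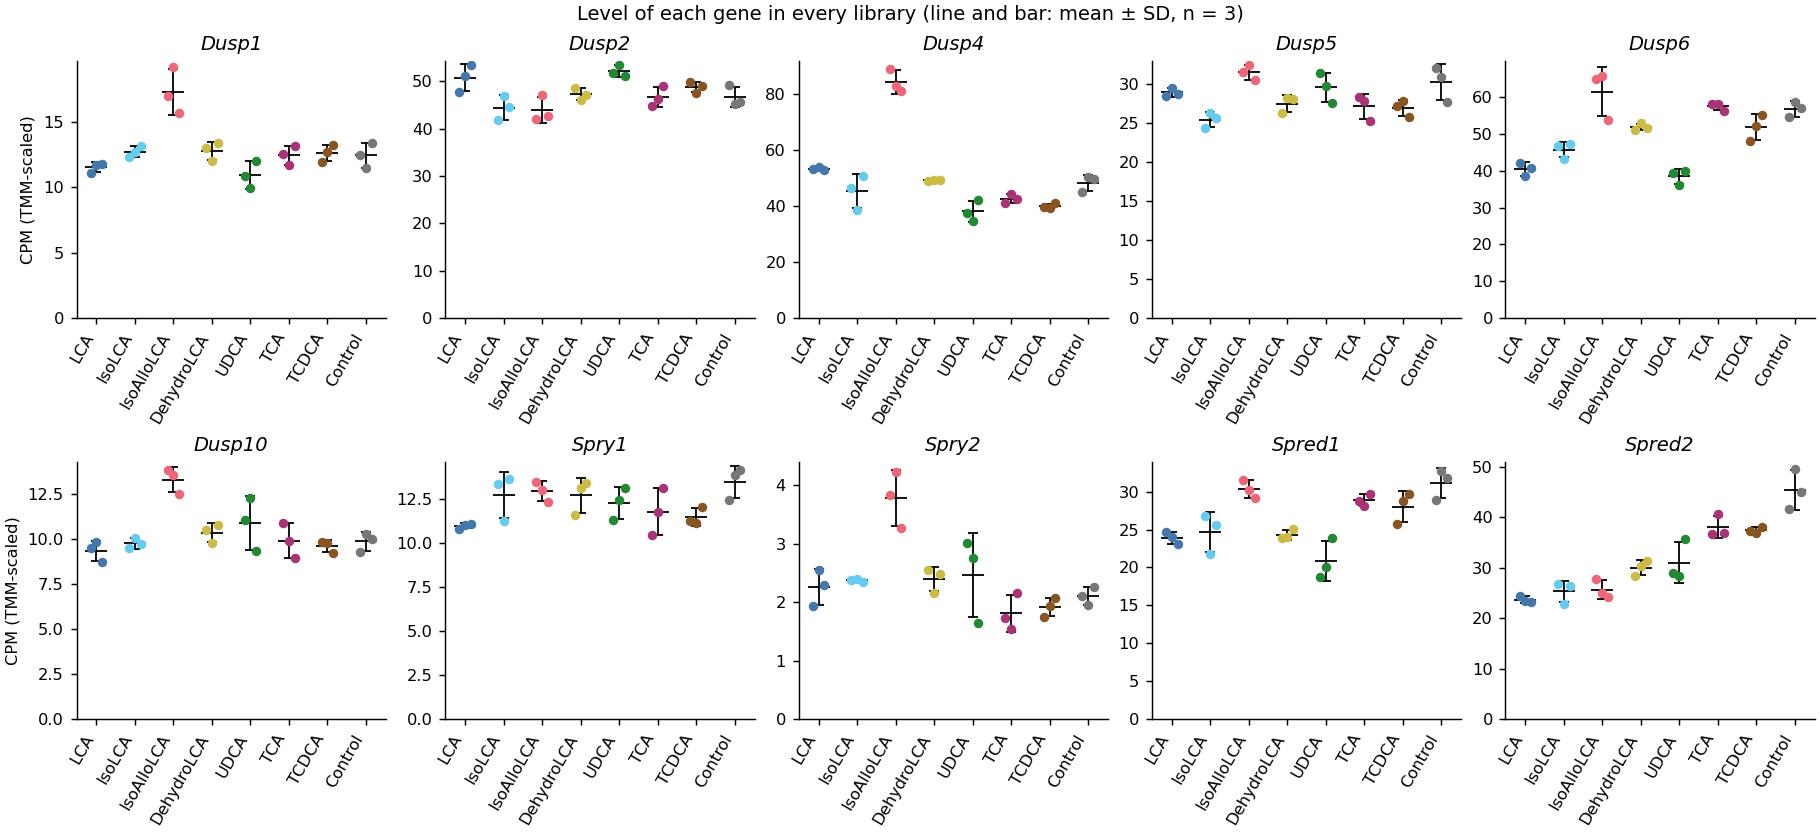
TMM-scaled CPM of each gene in every library, by group, with the control group at the right; points are libraries and lines with bars the mean ± SD (n = 3). Spred2 lies lower in all 7 bile acid groups than in control, and Dusp4 reaches 81.1 to 89.2 CPM with IsoAlloLCA, above every other library.

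Of the Sproutys, which block RAS and RAF activation below receptors, Spry1 was called with LCA alone and Spry2 with IsoAlloLCA alone. The difference between these genes was not tested, and Spry2 was measured less precisely (SE with LCA 0.17, against 0.08 for Spry1). Spry1 had 10.8, 11.01 and 11.1 CPM with LCA, against 12.4, 13.8 and 14.1 CPM in control. The LCA libraries lay close together and below all controls, and the log2 change was -0.30 ± 0.08 (adjusted p = 0.00728). In the other 6 acids the Spry1 values lay between -0.23 and -0.06 and none was called. TCDCA gave -0.23 (adjusted p = 0.0698), which passed without control replicate 1 (adjusted p = 0.0364). Spry1 overlaps the transcript Gm42922 on the other strand in the GENCODE annotation, and the sources used here do not give the strand setting of the counting, so reads of the pair may be mixed.

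Spry2 had 3.84, 4.22 and 3.27 CPM with IsoAlloLCA, against 2.11, 1.95 and 2.27 CPM in control. No library of the series outside IsoAlloLCA reached the lowest of these, the nearest being a UDCA library at 3.01 CPM. The log2 change was 0.85 ± 0.16 (adjusted p = 6.46e-05), measured on few counts. Spry2 varied the most within groups, with a median coefficient of variation of 10.7%, against 3.95% for Dusp5. UDCA was the least even group, at 2.47 ± 0.724 CPM (SD, n = 3), and its replicate 3 had 1.65 CPM.

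Dusp6 encodes the cytoplasmic phosphatase that acts on ERK and little else. Dusp6 had 42.2, 38.5 and 40.8 CPM with LCA, 46.7, 43.3 and 47.2 CPM with IsoLCA, and 39.4, 36.1 and 39.9 CPM with UDCA, against 54.4, 58.5 and 57.1 CPM in control. These 9 libraries all lay below the 3 controls. The log2 changes were -0.49 ± 0.06 with LCA (adjusted p = 1.04e-06), -0.31 ± 0.06 with IsoLCA (0.00108) and -0.56 ± 0.06 with UDCA (4.69e-07). DehydroLCA libraries, at 51.2, 52.8 and 51.6 CPM, also lay below control, but by less, and -0.13 (adjusted p = 0.244) was not called.

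With IsoAlloLCA, Dusp6 had 64.8, 65.8 and 53.8 CPM. Replicates 1 and 2 were above all controls and replicate 3 below them. The value of 0.12 ± 0.06 did not pass (adjusted p = 0.0925), and without replicate 3 it was 0.20 (adjusted p = 0.00274). TCA libraries, from 56.3 to 58.0 CPM, lay inside the control range, and TCDCA libraries, from 48.0 to 55.2 CPM, reached into it from below. Dusp6 lies on the plus strand at chr10:99263231-99267489 (mm10). The 250 bases before its start, chr10:99262981-99263230 of GRCm38.p6, are shown beside Spred2 since both were lowered by LCA, IsoLCA and UDCA. Spred1 was lowered by these acids too, but its window is not shown. None of the motifs searched occurs in the Dusp6 window, so it has no capitals.
Dusp6: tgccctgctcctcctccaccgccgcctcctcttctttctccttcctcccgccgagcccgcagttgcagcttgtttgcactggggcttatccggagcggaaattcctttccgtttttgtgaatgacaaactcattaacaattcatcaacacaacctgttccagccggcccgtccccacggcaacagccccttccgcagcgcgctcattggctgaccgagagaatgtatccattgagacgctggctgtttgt

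Among the nuclear phosphatases, Dusp4, an inducible enzyme that acts on ERK and JNK, showed the largest rise in CPM. Dusp4 had 89.2, 83.2 and 81.1 CPM with IsoAlloLCA, against 45.0, 50.5 and 49.6 CPM in control, and no other library of the series passed 53.95 CPM. The log2 change was 0.80 ± 0.07 (adjusted p = 2.22e-10). Dusp4 went the other way with UDCA, with 37.5, 34.9 and 42.1 CPM and a log2 change of -0.35 ± 0.07 (adjusted p = 0.000996). With TCDCA it had 39.6, 39.5 and 41.1 CPM, and the change of -0.27 ± 0.07 (adjusted p = 0.0103) did not pass without control replicate 2 (adjusted p = 0.0657). All 3 libraries of each of these acids lay below the lowest control.

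Dusp1 encodes a nuclear phosphatase induced within minutes by many stimuli, which acts on p38 and JNK as well as ERK. Dusp1 had 16.96, 19.2 and 15.7 CPM with IsoAlloLCA, against 12.5, 11.5 and 13.4 CPM in control. The groups did not overlap, and the log2 change was 0.47 ± 0.08 (adjusted p = 1.03e-05). In the other 6 acids the values lay between -0.19 and 0.04 and none was called, but without UDCA replicate 3 the UDCA value became -0.26 and passed (adjusted p = 0.0418).

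Dusp5, a nuclear phosphatase specific to ERK, had 24.4, 26.3 and 25.6 CPM with IsoLCA, against 32.1, 30.9 and 27.7 CPM in control, with no overlap. The log2 change was -0.25 ± 0.06 (adjusted p = 0.0047), and it was the only call on Dusp5 among the 7 acids. TCDCA gave -0.17 (adjusted p = 0.0578), which passed without control replicate 3 (adjusted p = 0.0143). Dusp5 overlaps an antisense transcript in the GENCODE annotation, so its counts carry the same doubt as those of Spry1.

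Dusp2, a phosphatase first described in activated T cells, was the steadiest of the 10: its highest and lowest group means differed 1.19-fold. Dusp2 had 51.9, 53.5 and 51.2 CPM with UDCA, against 49.2, 45.3 and 45.7 CPM in control, without overlap. The log2 change was 0.16 ± 0.05 (adjusted p = 0.028), and it lost the call without control replicate 2 (adjusted p = 0.122), control replicate 3 (0.094), UDCA replicate 1 (0.0578) or UDCA replicate 2 (0.106). The LCA value of 0.12 (adjusted p = 0.0659) passed without control replicate 1 (0.0378) or LCA replicate 1 (0.0225). The IsoAlloLCA value of -0.09 (adjusted p = 0.16) passed without IsoAlloLCA replicate 2 (0.0362).

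Dusp10 encodes a phosphatase that acts mainly on p38 and JNK. Dusp10 had 13.9, 13.6 and 12.5 CPM with IsoAlloLCA, against 9.32, 10.3 and 10.1 CPM in control. The groups did not overlap, and the log2 change was 0.43 ± 0.08 (adjusted p = 8.91e-05). The other 6 acids gave values between -0.08 and 0.15, none called. Without UDCA replicate 3, 8 of the 10 genes were called with UDCA, in place of 5, because Dusp1, Dusp10 (0.24, adjusted p = 0.0452) and Spry2 (0.45, adjusted p = 0.0452) then passed as well. With single libraries left out, 1696 to 2223 of all 13044 genes were called with UDCA, against 2599 (19.9%) with every library.

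The promoters of Dusp1 and Dusp5 are shown because they held the most motif matches among the 9 of 10 genes with a RefSeq window. Motifs were sought on both strands: TGACGTCA (the full cAMP response element), TGACG (its core, which the full element contains on each strand), TGANTCA (AP-1), CCGGAAG (ETS), CACGTG (E-box) and the CArG box bound by serum response factor. Dusp1 lies on the minus strand at chr17:26505591-26508472 (mm10). Its window, chr17:26508473-26508722 of GRCm38.p6, holds a full element starting 143 bases before the start, a further TGACG at 191 bases, both in capitals, and an E-box at 126 bases, left in lower case. Dusp5 lies on the plus strand at chr19:53529318-53541322 (mm10), and its RefSeq window, chr19:53528895-53529144 of GRCm38.p6, ends upstream of the start used for counting. It holds a pair of abutting CArG boxes at 82 and 72 bases and a TGACG on the minus strand at 55 bases, in capitals. Among all 32851 windows, 1.55% hold a full element, 1.47% a CArG box, 6.75% the AP-1 letters, 6.91% the ETS letters and 6.02% an E-box. Dusp2 held an E-box, and the windows of Dusp10, Spry1, Spry2 and Spred1 held none of these letters.
Dusp1: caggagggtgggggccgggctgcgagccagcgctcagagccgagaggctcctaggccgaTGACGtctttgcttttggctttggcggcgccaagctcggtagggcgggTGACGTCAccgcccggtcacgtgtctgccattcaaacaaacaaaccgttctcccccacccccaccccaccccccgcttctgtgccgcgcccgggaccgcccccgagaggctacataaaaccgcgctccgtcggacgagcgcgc
Dusp5: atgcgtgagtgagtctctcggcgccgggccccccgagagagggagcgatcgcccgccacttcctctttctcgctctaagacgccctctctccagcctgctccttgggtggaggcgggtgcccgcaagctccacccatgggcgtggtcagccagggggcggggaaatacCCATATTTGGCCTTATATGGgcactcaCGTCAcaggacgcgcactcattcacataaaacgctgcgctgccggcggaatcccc

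Structurally related acids were set against each other at matched doses in 6 pairs, some of which share libraries. IsoLCA differs from LCA in the configuration of the ring A hydroxyl. IsoLCA had more Dusp6 (0.18 ± 0.06 on the log2 scale, adjusted p = 0.0331) and Spry1 (0.22 ± 0.08, 0.0493) than LCA, and less Dusp2 (-0.19 ± 0.05, 0.00615), Dusp4 (-0.23 ± 0.07, 0.0125) and Dusp5 (-0.18 ± 0.06, 0.0159), where 30.3% of all genes were called, 15.8% higher and 14.6% lower. These 5 calls depended on single libraries. The count fell to 1 without IsoLCA replicate 1, to 3 without IsoLCA replicate 3 or LCA replicate 3, and to 2 without LCA replicate 2. Calls among all genes fell as well when a library was left out. They went from 3957 to 2522 without LCA replicate 2, the lowest, and to 3903 without LCA replicate 1, the highest. Dusp4 was -0.13 (adjusted p = 0.103) without IsoLCA replicate 2, and Spry1 also missed the threshold without LCA replicate 1 (adjusted p = 0.104). For Spred2 the difference between the 2 acids was 0.10 (95% interval -0.06 to 0.26) and for Spred1 0.05 (-0.11 to 0.20), neither called.

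IsoAlloLCA differs from IsoLCA in how rings A and B are joined. It had higher levels of 7 of the 10 genes and a lower level of none, where 59.8% of all genes were called and 31.7% called higher. Dusp4 differed the most, with 84.5 ± 4.20 CPM with IsoAlloLCA and 45.4 ± 6.07 CPM with IsoLCA (SD, n = 3 each) and a log2 difference of 0.89 ± 0.07 (SE; adjusted p = 3.57e-11). Spry2 differed by 0.68 ± 0.15 (adjusted p = 0.000515), Dusp1 and Dusp10 by 0.45 ± 0.08 each, Dusp6 by 0.43 ± 0.06, Dusp5 by 0.31 ± 0.06 and Spred1 by 0.30 ± 0.07. Of the 3 genes not called, Spry1 differed by 0.02 (95% interval -0.15 to 0.19), Dusp2 by -0.02 (-0.12 to 0.09) and Spred2 by 0.02 (-0.14 to 0.18). Spred2 was low in both groups, with 25.7 ± 1.89 CPM with IsoAlloLCA and 25.3 ± 2.12 CPM with IsoLCA.

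Set against LCA, from which it differs at both places, IsoAlloLCA was higher for 7 of the 10 genes and lower for Dusp2 (-0.21 ± 0.05, adjusted p = 0.00113), where 61.4% of all genes were called and 32.3% called higher. The largest differences were Spry2 (0.75 ± 0.15, adjusted p = 0.000161), Dusp4 (0.66 ± 0.07, 3.41e-09), Dusp6 (0.60 ± 0.06, 4.38e-09) and Dusp1 (0.59 ± 0.08, 3.47e-07). Dusp10, Spred1 and Spry1 differed by 0.51, 0.34 and 0.24, and Spry1 did not pass without IsoAlloLCA replicate 1 (adjusted p = 0.0597). The Spred2 difference was again small, at 0.12 (95% interval -0.04 to 0.28).

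DehydroLCA carries a ketone where LCA has the ring A hydroxyl. It had more Dusp6 (51.9 ± 0.874 CPM, against 40.5 ± 1.86 CPM with LCA) and more Spred2 (30.1 ± 1.52 CPM, against 23.7 ± 0.671 CPM with LCA; SD, n = 3 each), where 17.8% of all genes were called and 10.3% called higher. The log2 differences were 0.36 ± 0.06 (adjusted p = 0.000252) and 0.34 ± 0.08 (0.00315). Spred1 differed by 0.02 (95% interval -0.13 to 0.18). UDCA carries a hydroxyl on ring B that LCA lacks. It had more Spred2 (0.39 ± 0.08, adjusted p = 0.000574) and less Dusp4 (-0.49 ± 0.07, 1e-05), where 26.9% of all genes were called. The count was 4 without UDCA replicate 3, with Dusp10 (0.32, adjusted p = 0.00537) and Spred1 (-0.30, 0.00514) added. Of all genes 3342 were then called, in place of 3504. Dusp6, low with both acids, differed by -0.08 (95% interval -0.21 to 0.05).

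TCA carries a hydroxyl on ring C that TCDCA lacks. Between TCA and TCDCA 0 of the 10 genes were called by edgeR and 0 by DESeq2, where 3.61% of all genes were called, and 1 of the 10, Dusp6, had an unadjusted p under 0.05, as had 17% of all genes. Dusp6 averaged 57.4 ± 1.02 CPM with TCA and 51.8 ± 3.58 CPM with TCDCA (SD, n = 3 each), a log2 difference of 0.15 (95% interval 0.02 to 0.28, adjusted p = 0.187). For Spred2 the interval ran from -0.13 to 0.18.

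**Figure D3:**
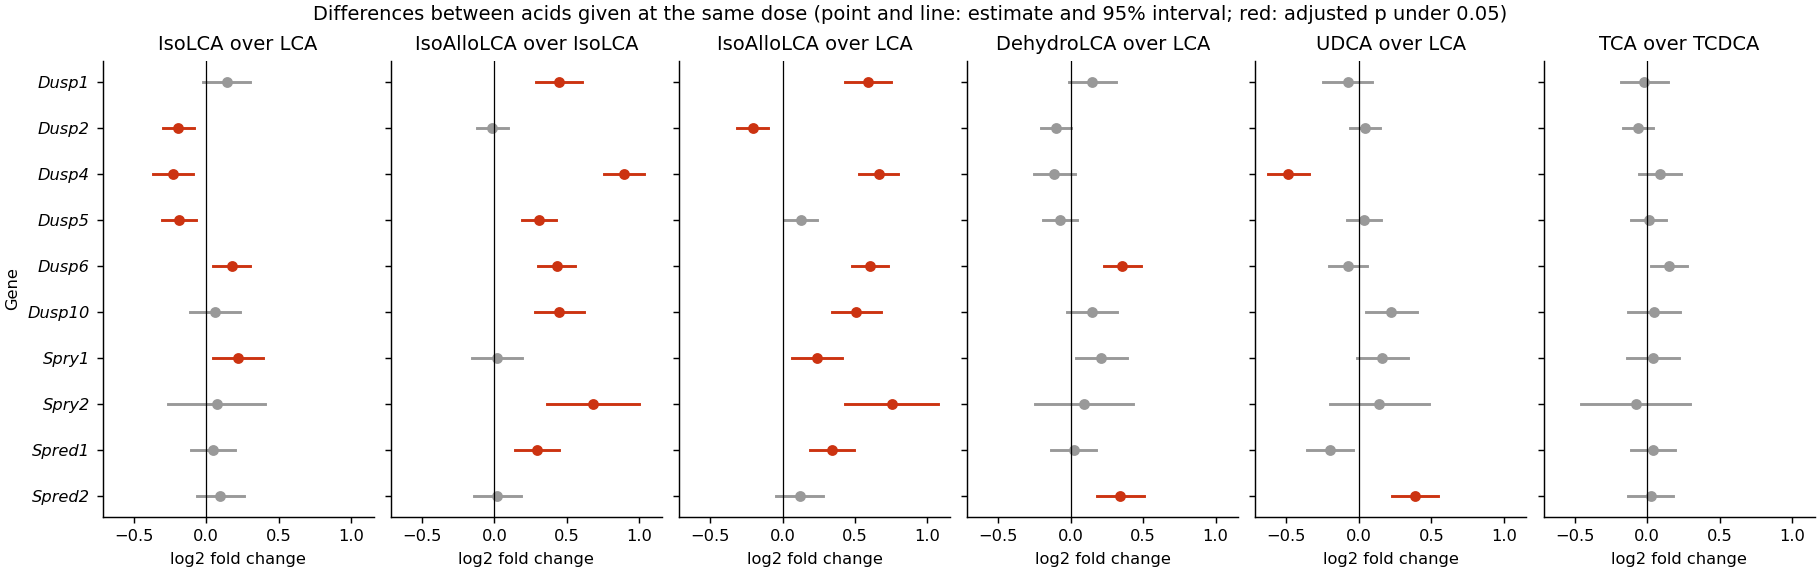
Log2 difference of each gene between 2 related bile acids, the first named over the second, with 95% intervals from edgeR; red points have an adjusted p under 0.05. Dusp4 stands at 0.89 in IsoAlloLCA over IsoLCA, while the Spred2 intervals of both IsoAlloLCA pairs span 0.

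Over the 8 group means, correlations between members ran in both directions. Dusp6 and Spred1 had a Pearson r of 0.908, Dusp10 and Spry2 0.882, Dusp1 and Dusp4 0.857, and Dusp1 and Dusp2 -0.783, all over 8 points of log2 CPM that rest on the same libraries. Among tested genes reaching a group mean of 10 CPM, those with the profile most like that of Spred2 were Gimap5 (r = 0.991), Cul4a (0.972) and Entpd1 (0.964). For Dusp4 they were Dcaf8 and Slc2a6 (0.994 each) and Bhlhe40 (0.99), and for Dusp6 they were Sin3a (0.978), Nudt16 (0.969) and Mnt (0.95). Mnt was also among the 3 closest to Spred1 (0.957).

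Of 18 tested transcripts that ERK is known to induce, such as Egr, Fos and Etv family factors, the counts differed by acid. IsoAlloLCA raised 11 and lowered 3, with a median log2 change of 0.46, beside 0.03 over all genes. These calls made up 77.8% of the list, where 58.4% of all genes were called. The 3 with the smallest adjusted p were Egr1 (1.64), Fosl2 (0.90) and Srf (-0.60), of which Egr1 and Fosl2 are early transcription factors. LCA raised 3 and lowered 5 (44.4% of the list, where 36.5% of all genes were called), IsoLCA raised 0 and lowered 6 (33.3%, where 9.84% were called), and DehydroLCA raised 0 and lowered 3 (16.7%, where 5.83% were called). UDCA raised 4 and lowered 8 (66.7%, where 19.9% were called), TCDCA raised 0 and lowered 5 (27.8%, where 13.1% were called), and TCA had 0 calls in either direction.

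Etv5 and Etv4, ETS factors closely tied to ERK output in many tissues, were called lower along with Dusp6 with LCA, IsoLCA and UDCA. With DehydroLCA (-0.13), TCDCA (-0.13) and IsoAlloLCA (0.12) Dusp6 was not called, while Etv5, Etv4 or both were. Etv5 and Etv4 were picked to stand beside Dusp6 after their values were seen. Etv5 averaged 1.94 ± 0.0789 CPM with LCA, 2.68 ± 0.607 CPM with IsoLCA, 3.03 ± 0.822 CPM with DehydroLCA, 1.57 ± 0.524 CPM with UDCA and 3.01 ± 0.651 CPM with TCDCA, against 6.33 ± 0.841 CPM in control (SD, n = 3 each). Its log2 changes were -1.70, -1.23, -1.06, -2.02 and -1.08 in that order, all called. With IsoAlloLCA it averaged 8.04 ± 0.400 CPM and the value of 0.35 was not called (adjusted p = 0.0951). With TCA it averaged 4.57 ± 1.27 CPM and the value of -0.47 was not called (adjusted p = 0.441), while Dusp6 stood at 0.02. The log2 changes of Etv4 were -1.002 with LCA, -1.07 with IsoLCA, -0.76 with DehydroLCA, -1.77 with UDCA and 0.54 with IsoAlloLCA, all called, and -0.44 with TCDCA (adjusted p = 0.121) and -0.14 with TCA (0.875), not called. Other genes of the list rose with LCA and UDCA, where Dusp6, Etv4 and Etv5 fell. Egr1 averaged 20.5 ± 0.335 CPM and Fosl2 47.1 ± 2.26 CPM with LCA, against 13.7 ± 0.973 CPM and 36.7 ± 2.14 CPM in control, and Egr3 averaged 14.97 ± 1.16 CPM and Egr1 17.7 ± 1.39 CPM with UDCA, against 8.77 ± 0.776 CPM and 13.7 ± 0.973 CPM in control (SD, n = 3 each), all called higher.

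**Figure D4:**
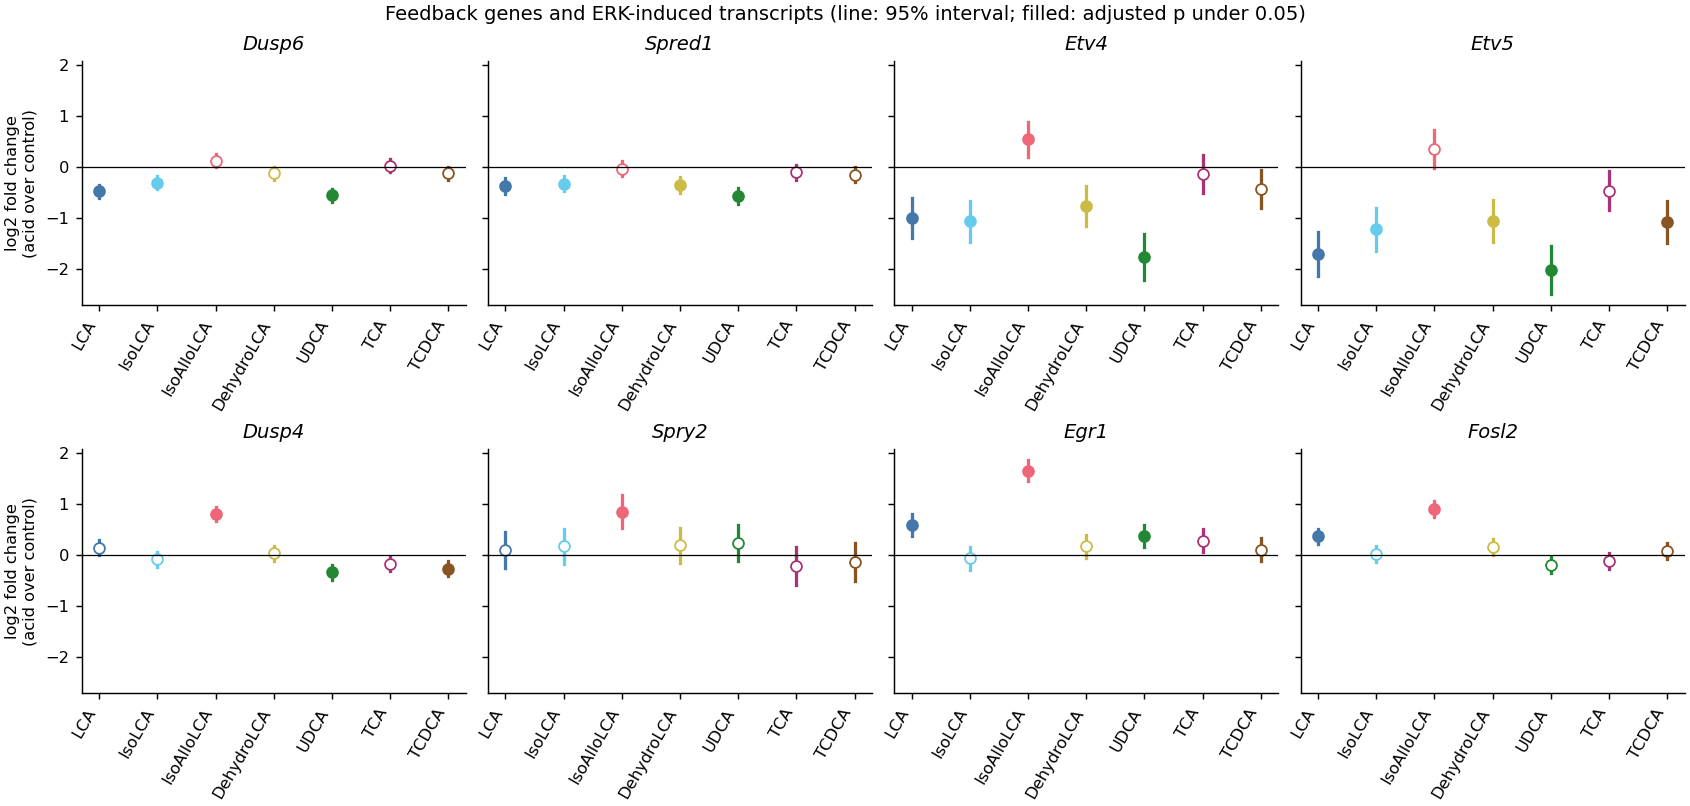
Log2 fold change over control with 95% intervals for 4 of the feedback genes and 4 other ERK-induced transcripts, by bile acid; filled points have an adjusted p under 0.05. Dusp6, Spred1, Etv4 and Etv5 lie below 0 with LCA, IsoLCA and UDCA, and Dusp4, Spry2, Egr1 and Fosl2 are highest with IsoAlloLCA. The genes shown were picked by hand. Of the 18 tested ERK-induced transcripts, 3 that are not shown, Srf among them, were called lower with IsoAlloLCA.

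The relatives of the 10 genes were 10 further DUSP, Sprouty and Spred genes, 9 of which were tested. IsoAlloLCA raised Dusp16 (0.87, adjusted p = 7.62e-13), a JNK phosphatase, Spry4 (0.93, 0.001) and 1 further relative, and lowered 2. Dusp8, which acts on p38 and JNK, is left out of that count because it passed the low-count filter through the IsoAlloLCA libraries alone, so that its difference was fixed by the filter. It reached 108.5 counts in an IsoAlloLCA library and averaged 2.10 ± 0.914 CPM there (SD, n = 3), whereas no control library held more than 1 count. UDCA lowered 4 of these relatives, led by Dusp22 (-0.31), LCA lowered 3, and IsoLCA, DehydroLCA and TCDCA lowered 1 each. None rose with those 5 acids, and TCA had 0 calls. As shares of the 9 tested, these are 44.4% with UDCA, 33.3% with LCA and 11.1% with each of the other 3, against 19.9%, 36.5%, 9.84% (IsoLCA), 5.83% (DehydroLCA) and 13.1% (TCDCA) of all genes. The 9 include Dusp8. With Dusp8 counted, 66.7% of the 9 were called with IsoAlloLCA, near the 58.4% of all genes (30.6% called higher).

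A further 17 genes encode proteins that inactivate RAS or restrain the pathway around it, among them the ubiquitin ligases Cbl and Cblb, and they gave calls in both directions. LCA lowered 3 and raised 5 (47.1% of the list, where 36.5% of all genes were called), led by Rasa3 (-0.95, adjusted p = 4.77e-09) and Rasa4 (-0.65, 7.01e-06), which speed GTP hydrolysis by small GTPases, and Dok1 (0.35). IsoLCA lowered 4 and raised 1 (29.4%, where 9.84% were called), with Rasa3 at -0.83 and Rasa4 at -0.69. IsoAlloLCA raised 8 and lowered 3 (64.7%, near the 58.4% of all genes), led by Lztr1 (0.45), Cblb (0.36) and Cbl (-0.28). UDCA raised 3 and lowered 2, with Rasa4 at -0.59 (29.4%, where 19.9% were called), and TCDCA raised 2 and lowered 2, with Rasa4 at -0.45 (23.5%, where 13.1% were called). DehydroLCA changed 1 each way, with Rasa3 at -0.44 (11.8%, where 5.83% were called), and TCA had 0 calls.

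Of 29 tested genes that carry the signal from LAT through RAS and RAF to ERK, IsoAlloLCA lowered 13 and raised 7 (69% of the list, where 58.4% of all genes were called). The 3 with the smallest adjusted p were Rasgrp1 (-0.59, adjusted p = 1.68e-10), which loads RAS in T cells, the adaptor Lat (-0.41) and the ERK-activated kinase gene Rps6ka1 (-0.26). LCA lowered 8 and raised 4 (41.4%, near the 36.5% of all genes), with Map2k1, the gene of MEK1, at -0.25 and the adaptor Gab2 at 0.74. UDCA lowered 3 and raised 2, with Map2k1 at -0.22 (17.2%, where 19.9% were called), and TCDCA lowered 2 and raised 1, with Map2k1 at -0.25 (10.3%, where 13.1% were called). IsoLCA changed 1 each way and DehydroLCA raised 2 (6.9% each, where 9.84% and 5.83% were called), and TCA changed 0.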

How the data were processed

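The authors deposited 1 table of expected counts over exons, made with HOMER on mm10 with 1 RefSeq transcript per gene and no normalization, per the file headers; STAR and DESeq2 are named per the submitters' processing notes. Values come in steps of 0.5 (29.43% are not whole) and were rounded to whole numbers, 0.5 upward, although whole counts had been assumed. Transcript lengths came from the same table. Libraries were grouped by the sample titles. Here edgeR 4.0.16 (R 4.3.3, limma 3.58.1) fitted all 24 libraries in 1 quasi-likelihood model with TMM scaling after its low-count filter, checked on simulated data; errors are SE, and intervals 95%. The 10 genes and the gene lists were chosen with earlier results of these data known. The rule for naming genes was the 10, the 3 of each list with the smallest adjusted p per comparison, and the 3 of most similar profile per gene. Similar profiles are given in full only for Spred2, Dusp4 and Dusp6. Some genes, such as Etv4, Etv5, Pecam1 and Dusp8, were named outside this rule. Replicate numbers were not treated as pairs, since in 0 of 13 comparisons were all same-number correlations over 0.1. Over all comparisons these correlations ran from -0.328 to 0.396. For IsoAlloLCA over IsoLCA they were 0.396, 0.33 and 0.07. For IsoAlloLCA over LCA they were 0.32, 0.228 and 0.057, and for IsoLCA over LCA 0.265, 0.148 and 0.075. The rule thus cannot exclude a shared origin of some libraries. Alternatives were RLE scaling, DESeq2 1.42.0, no filter, a 5 CPM filter, rounding down, a replicate block, only the groups compared, and each library left out. No pair of libraries within a group agreed within sampling noise (chi-square per degree of freedom 2.42 to 14.8).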

Additional observations from a re-analysis of the deposited data

How the results depend on the processing

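Of 46 calls on the 10 genes, 22 of them over control, 37 held under every alternative (19 of the 22 over control), and no called value changed sign. The 9 others were Dusp2 with UDCA, Dusp4 and Spred2 with TCDCA, Spry1 for IsoAlloLCA over LCA, and all 5 for IsoLCA over LCA. With single libraries left out, the number of the 10 genes called ran from 0 to 1 for TCA, 0 to 3 for TCDCA, 1 to 4 for IsoLCA over LCA, 4 to 8 for UDCA, 2 to 4 for UDCA over LCA, and that of all genes from 6 to 112 for TCA, 816 to 1198 for IsoLCA, 400 to 615 for DehydroLCA, 1696 to 2223 for UDCA, 905 to 1630 for TCDCA, 1187 to 2251 for DehydroLCA over LCA, 2522 to 3903 for IsoLCA over LCA, 186 to 743 for TCA over TCDCA. Values that were not called changed sign 55 times. After the change these values were at most 0.068 in size, but in the main fit some were larger (Spry2 for UDCA over LCA was 0.139). Without single libraries their log2 ranges were, for DehydroLCA, Dusp4 (-0.030 to 0.060), Dusp1 (-0.017 to 0.093), Dusp2 (-0.003 to 0.048); for UDCA, Dusp5 (-0.092 to 0.016); for TCA, Dusp6 (-0.015 to 0.042), Dusp10 (-0.068 to 0.071), Dusp2 (-0.036 to 0.034), Dusp1 (-0.054 to 0.056); for IsoLCA, Dusp1 (-0.024 to 0.086), Dusp10 (-0.063 to 0.012), Dusp4 (-0.179 to 0.010), Spry1 (-0.137 to 0.001); for IsoAlloLCA, Spred1 (-0.099 to 0.000); for TCDCA, Dusp1 (-0.035 to 0.074); for DehydroLCA over LCA, Spred1 (-0.003 to 0.045), Spry2 (-0.016 to 0.182); for IsoAlloLCA over IsoLCA, Dusp2 (-0.068 to 0.024), Spry1 (-0.058 to 0.075), Spred2 (-0.045 to 0.059); for IsoLCA over LCA, Spred1 (-0.013 to 0.129), Spry2 (-0.033 to 0.165); for UDCA over LCA, Dusp2 (-0.002 to 0.079), Dusp5 (-0.012 to 0.079), Spry2 (-0.019 to 0.350); for TCA over TCDCA, Dusp5 (-0.020 to 0.059), Dusp10 (-0.027 to 0.112), Dusp1 (-0.059 to 0.025), Spry2 (-0.226 to 0.026), Spred2 (-0.023 to 0.049), Spry1 (-0.046 to 0.119), Spred1 (-0.017 to 0.085). Dusp2 with TCA was -0.002 with RLE scaling and with DESeq2, -0.003 without a filter and -0.001 with only the 2 groups compared. Dusp10 with TCA was 0.000 without a filter, Dusp1 with TCA was 0.002 on rounding down and 0.001 with the replicate block, and Dusp2 for IsoAlloLCA over IsoLCA was 0.005 with the 5 CPM filter, under which Spry2 had no value. For TCA, 1 of the 10 genes and 123 of all genes were called without a filter, 14 of all genes with only the 2 groups compared and 103 with DESeq2. For DehydroLCA over LCA, 4 of the 10 were called with only the 2 groups compared. The main fit called 2 of them, and 17.8% of all genes. Whether libraries with the same replicate number share an origin is not given. With the replicate block, 4 of the 10 were called for TCDCA and 4 for UDCA over LCA. The main fit called 2 of the 10 in each, where 13.1% and 26.9% of all genes were called. Shares of all genes with the replicate block, or for DehydroLCA over LCA with only the groups compared, are not given here. These counts of the 10 therefore cannot be set against all genes at the same setting. The causes of these changes were not tested. Depth limits Spry2 the most, and unequal exonic shares were not corrected.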

Other observations

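The kinases of the JNK and p38 branches, on which Dusp1, Dusp10 and Dusp16 also act, were counted in the same way. Of 16 tested genes, IsoAlloLCA raised 6 and lowered 2 (50% of the list, where 58.4% of all genes were called). The 3 with the smallest adjusted p (edgeR) were the p38 gene Mapk12 (1.71 ± 0.13 on the log2 scale, SE; adjusted p = 3.84e-11), the p38 gene Mapk11 (0.94 ± 0.08, 1.09e-10) and Map3k7, the gene of TAK1 (0.28 ± 0.03, 6.61e-08). Mapk11 also rose with LCA (0.27 ± 0.08, adjusted p = 0.00792) and fell with UDCA (-0.34 ± 0.08, 0.00456). Map3k1, an upstream kinase of JNK, fell with LCA (-0.26), IsoLCA (-0.25), DehydroLCA (-0.21), UDCA (-0.32) and TCDCA (-0.34), with adjusted p between 0.000425 and 0.0405. With TCA it was -0.14 (adjusted p = 0.478), where 0 of the 16 were called. LCA raised 4 of the 16 and lowered 3 (43.8%, where 36.5% of all genes were called), UDCA raised 2 and lowered 4 (37.5%, where 19.9% were called), and TCDCA raised 3 and lowered 1 (25%, where 13.1% were called). IsoLCA and DehydroLCA lowered 1 each (6.25%, where 9.84% and 5.83% were called).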
